A study of Homo sapiens with 7 samples.

Results

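To describe how the genes that write, copy, erase and read DNA methylation were transcribed in T47D/A1-2 cells, 9 genes were examined out of the 26175 in the RNA-seq table. They were listed by gene name, and no measured value enters the rule, though results of these data were known when the list was made: DNMT1, DNMT3A, DNMT3B, UHRF1, TET1, TET2, TET3, MBD1 and MBD2. T47D is a luminal breast cancer cell line, and in its A1-2 subline glucocorticoid receptor of the rat is expressed in excess and a luciferase gene driven by MMTV sits in the genome. The sample labels name the line T-47D. Cells were grown in DMEM with 10% FBS and moved to medium with 5% serum stripped by charcoal dextran 24 hours or more before harvest. No other condition was sampled. Start-seq, which sequences the 5’ ends of short capped nuclear RNA, gave positions of transcription start sites (TSSs) from replicate 1 of 2. RNA-seq gave FPKM values, fragment counts scaled for transcript length and library depth, as 1 merged value per gene over 3 replicates. No value therefore has an error between replicates, and no difference between genes could be tested.

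DNA methylation at CpG dinucleotides is laid down de novo by DNMT3A and DNMT3B and copied after replication by DNMT1. UHRF1 recognizes hemimethylated DNA and brings DNMT1 to it. The TET enzymes oxidize 5-methylcytosine, the first step of active demethylation, and MBD1 and MBD2 bind methylated CpGs and recruit repressive complexes. Promoters inside CpG islands are usually kept free of methylation, and loss or mutation of several of these genes is known from leukemia and other cancers.

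Gene TSSs were taken from the Start-seq calls inside each gene's locus widened by 1000 nts, on the strand of the gene. An upstream antisense TSS (uaTSS, within 1000 nts upstream on the other strand) and a downstream antisense TSS (daTSS, within 2000 nts downstream on the other strand) were joined to a gene TSS through a shared identifier. Of the 9 genes, 6 had a called gene TSS, 3 had none, and TET2 had 2, which gave 7 gene TSSs of 10391. A gene TSS was present at 47.5% of genes in the table with a strand, at 54.5% of protein-coding genes and at 83.1% of those with an FPKM of at least 1. The initiation sequences at the 7 gene TSSs are shown because their start dinucleotides differed, with the bases at -1 and +1 in capitals, read 5’ to 3’ in the direction of the gene from hg19.
DNMT1 (chr19:10305590-10305619, minus strand): ggggcgcctgcgctgccgcCGccgcgtctg
DNMT3A (chr2:25564766-25564815, minus strand): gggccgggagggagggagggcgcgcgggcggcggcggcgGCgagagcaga
DNMT3B (chr20:31350380-31350409, plus strand): agctcggcgatcggcgccgGAgattcgcga
UHRF1 (chr19:4909493-4909522, plus strand): gttttcgcgggaaaaaaatCAgagcagctg
TET2, first gene TSS (chr4:106067199-106067228, plus strand): cgggcaacgggatctaaagGGagatagaga
TET2, second gene TSS (chr4:106068043-106068072, plus strand): agaaggaagcaagatggctGCcctttagga
MBD1 (chr18:47808154-47808203, minus strand): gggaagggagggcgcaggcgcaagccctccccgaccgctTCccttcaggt

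Transcription often begins at a purine preceded by a pyrimidine. This dinucleotide was present at 2 of the 7 gene TSSs, DNMT1 (CG) and UHRF1 (CA), and at 66.1% of all gene TSSs. Allowing it to lie 1 nt to either side gave 4 of 7 against 75.5% of all gene TSSs. The UHRF1 start also fitted the Inr-like pattern CANW (C at -1, A at +1, A or T at +3), which was found at 18.8% of gene TSSs. With 7 sites, these counts describe the sites and not a preference of the genes.

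As a check of the cell line, all 9 luminal epithelial markers examined were above an FPKM of 1, from 44.1 for ESR1, the estrogen receptor, to 1142 for KRT8. Of the 3 basal markers, KRT5 and KRT14 were listed at 0 and TP63 was at 0.517. The 3 mesenchymal markers ranged up to 0.864 (VIM) and the 2 endothelial markers up to 0.00291 (PECAM1). The proliferation markers MKI67, TOP2A and CCNB1 had FPKM values of 27.8, 91.5 and 136. The median FPKM was 0.528 over all genes, of which 7888 were listed at 0, 3.999 over protein-coding genes and 13.6 over genes with a gene TSS. An FPKM above 0 was listed for all 9 genes and for 69.9% of the table.

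Steady-state levels of the 9 genes ranged from an FPKM of 0.463 for TET1 to 38.1 for DNMT1, with a median of 7.88. All but TET1 exceeded the median of all genes, which is low because of the genes at 0, and 4 of the 9 exceeded the median of genes with a gene TSS. On the log2(FPKM + 0.1) scale the median of the 9 genes was 3.67 above that of all genes. Among genes with an FPKM of at least 1, which leaves out TET1, the difference was -0.29 for the other 8. Of the maintenance pair, DNMT1 stood at percentile 88.9 of all genes and UHRF1, at 17.5, at percentile 79.1. The readers lay beside UHRF1, with an FPKM of 19.6 for MBD1 and 17.5 for MBD2. The next group was formed by DNMT3B at 7.88, TET3 at 6.76 and TET2 at 6.56. DNMT3A, at 1.64, was at percentile 55.9, and TET1 at percentile 49.4. Some neighbours in this order were close: UHRF1 and MBD2 were equal to 3 digits, and TET3 and TET2 differed by 1.03-fold. Levels are compared between genes here because FPKM is scaled by transcript length, but other effects that differ between genes were not checked. Whether neighbours differ beyond replicate spread is unknown.

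**Figure D1:**
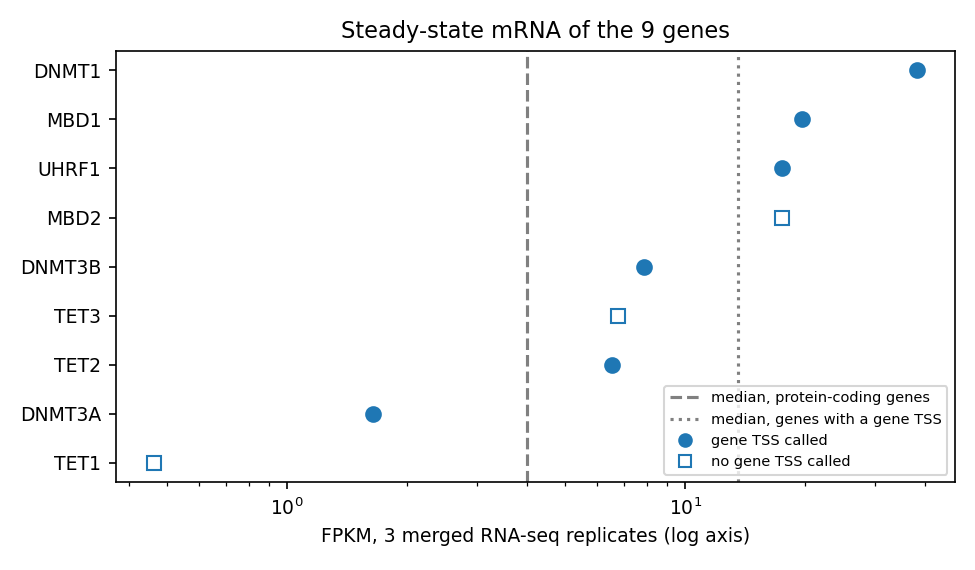
FPKM of each of the 9 genes over 3 merged RNA-seq replicates, on a log axis, with filled circles for genes with a called gene TSS and open squares for those without. DNMT1 was highest at 38.1 and TET1 lowest at 0.463; the lines mark the medians of protein-coding genes (3.999) and of genes with a gene TSS (13.6).

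Among the DNA methyltransferases, DNMT1 made up 80.0% of the summed FPKM of 47.7, DNMT3B 16.5% and DNMT3A 3.45%. DNMT1 was 23.2-fold higher than DNMT3A and 4.84-fold higher than DNMT3B. Of the de novo enzymes, DNMT3B was 4.79-fold higher than DNMT3A. The summed FPKM of the TET genes was 13.8, divided almost evenly between TET3 (49.1%) and TET2 (47.6%). TET1 contributed 3.36%, and its FPKM was 14.2-fold lower than that of TET2.

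The wider pathway was described through 36 further genes in 6 roles. Their median FPKM was 24.0, and 33 of them had an FPKM of at least 1, as did 8 of the 9 genes and 46.9% of all genes in the table. PCNA, the replication clamp, was the highest maintenance partner at 258.9, and CDCA7, a chromatin-associated factor mutated in ICF syndrome, was listed at 0.

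DNMT3L, the catalytically inactive cofactor of the de novo enzymes, was at 0.0567 and the tRNA methyltransferase TRDMT1 at 1.03. The other methyl-CpG and related readers spanned 2.56 for MBD5 to 34.7 for MBD3, a subunit of the NuRD complex. The CXXC proteins, many of which bind unmethylated CpGs, spanned 6.88 for CXXC4 to 67.1 for KDM2A. Among base excision and demethylation partners, PARP1 was highest at 129 and DPPA3, a germ-line and oocyte factor, was listed at 0. In metabolic supply, IDH2, which makes the TET cosubstrate 2-oxoglutarate, was highest at 363.8, and D2HGDH lowest at 3.07.

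**Figure D2:**
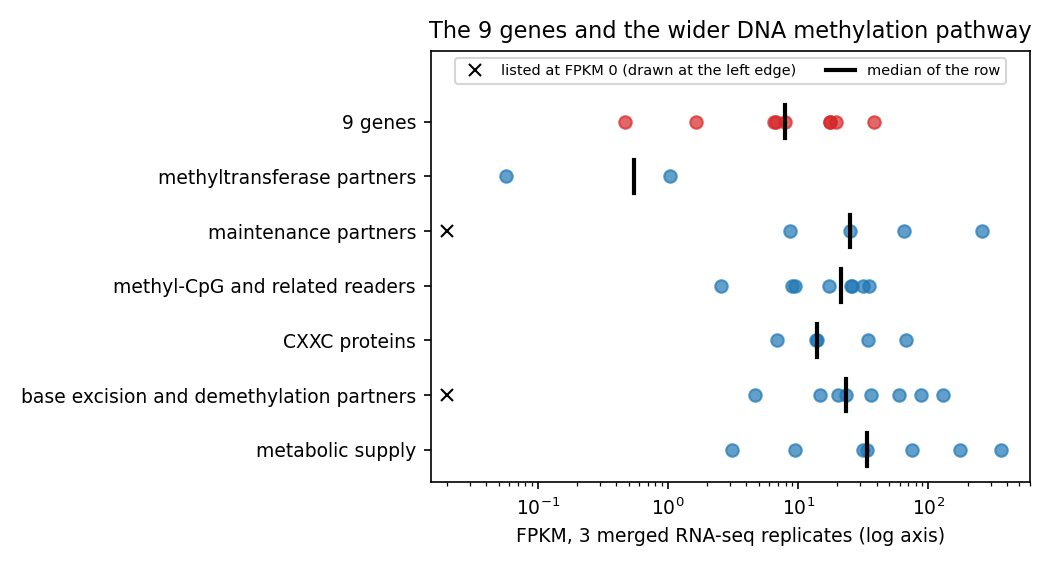
FPKM of the 9 genes (red) and of 36 pathway genes grouped by role (blue), on a log axis, each point 1 gene and each black bar the median of its row. CDCA7 and DPPA3, listed at 0, are drawn as crosses at the left edge; the medians were 7.88 for the 9 genes and 24.0 over the 36.

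DNMT1 (ENSG00000130816, chromosome 19, minus strand) was the only one of the 9 genes with calls of all 3 kinds. Its gene TSS was called at position 10305599 in hg19, 9 nts downstream of the nearest annotated transcript start and in exon 1. A transcript with that start is annotated as nonsense-mediated decay, and the gene TSS is 156 nts inside the 5’ edge of the locus. The uaTSS lay on the plus strand at 10305712, 113 nts upstream, inside an exon of another annotated DNMT1 transcript. The daTSS lay on the plus strand at 10305132, 467 nts downstream, in an intron. Over all gene TSSs, 53.1% had a uaTSS, 28.4% a daTSS and 17.5% both, and a daTSS within 1000 nts was present at 24.1%. Like that of DNMT1, 60.1% of the 2950 daTSSs that could be placed were intronic with no annotated exon over them, and 71.1% were intronic in the nearest transcript. The DNMT1 distances were at percentile 19.9 of all gene TSS-uaTSS distances and percentile 45.4 of all gene TSS-daTSS distances. The antisense TSSs were 580 nts apart, and both lay inside the CpG island, which ran from 265 nts upstream to 632 nts downstream of the gene TSS. They were 152 nts from its upstream edge and 165 nts from its downstream edge. The antisense initiation sequences are shown in the direction of antisense transcription, with -1 and +1 in capitals.
DNMT1 uaTSS (chr19:10305692-10305721, plus strand): ggggaggaggggatgtaccAAacggagaga
DNMT1 daTSS (chr19:10305092-10305141, plus strand): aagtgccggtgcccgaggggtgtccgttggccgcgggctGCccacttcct

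DNMT3A (ENSG00000119772, chromosome 2, minus strand) initiated at 25564775, 684 nts inside the 5’ edge of its locus. This is 19 nts downstream of an annotated transcript start, and no gene TSS was called at the edge itself. DNMT3A had a uaTSS at 25564844, 69 nts upstream, and no daTSS. Its island was the longest of the 6 that overlapped a gene TSS, from 829 nts upstream to 1465 nts downstream, with a GC content of 81.2%.

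DNMT3B (ENSG00000088305, chromosome 20, plus strand) initiated at 31350400, 2 nts upstream of an annotated start and 209 nts inside the locus, in an exon of another annotated transcript. Its uaTSS at 31349579 was 821 nts upstream, at percentile 97.6 of all gene TSS-uaTSS distances, and 2.54% of uaTSSs lay more than 800 nts away. It was 429 nts beyond the upstream edge of the CpG island, which reached from 392 nts upstream to 863 nts downstream of the gene TSS. No daTSS was called. The uaTSSs of the de novo enzymes thus lay on either side of the median distance.
DNMT3A uaTSS (chr2:25564804-25564853, plus strand): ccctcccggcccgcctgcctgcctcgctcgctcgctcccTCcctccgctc
DNMT3B uaTSS (chr20:31349570-31349619, minus strand): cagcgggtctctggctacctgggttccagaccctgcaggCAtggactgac

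UHRF1 (ENSG00000276043, chromosome 19, plus strand) initiated at 4909513, exactly at an annotated transcript start, in exon 1. This position is 6421 nts inside the locus, and no gene TSS was called at the annotated start on the 5’ edge. The uaTSS lay 194 nts upstream at 4909319, at percentile 48.5 of all distances, inside the island and 56 nts from its upstream edge. The UHRF1 island had an observed to expected CpG ratio of 0.960, the highest of the 6 islands, compared with a median of 0.870 over all islands at gene TSSs. No daTSS was called.
UHRF1 uaTSS (chr19:4909310-4909359, minus strand): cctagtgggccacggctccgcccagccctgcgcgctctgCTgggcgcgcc

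TET2 (ENSG00000168769, chromosome 4, plus strand) had gene TSSs at 106067219 and 106068063, 844 nts apart, both in annotated exons. Under the study's methods, overlapping search windows of 2000 nts that share a gene name were merged, and the annotated starts nearest to these calls are 1011 nts apart, so why both are listed is not known. With the first or the second left out, 5 of 6 gene TSSs had a uaTSS, 2 of 6 had the pyrimidine-purine start, and the median uaTSS distance was 113 nts. The island count became 5 of 6 without the first and 6 of 6 without the second. Of protein-coding genes with a gene TSS, 11.1% had 2 or more in the widened locus. The first gene TSS lay 187 nts downstream of the nearest annotated start and the second 20 nts downstream of one. The first had its uaTSS at 106067217 on the minus strand, 2 nts from the gene TSS, and 0.707% of uaTSSs lay within 10 nts. The uaTSS of the second at 106067995 was 68 nts upstream and began at a CA dinucleotide. Neither had a called daTSS. However, the uaTSS of the second lies between the 2 gene TSSs, thus antisense to the first and within 2000 nts downstream of it. The study's methods drop daTSS calls that may be the uaTSS of another start, and whether this applied here is unknown. A CpG island of 772 bp occupied the interval between the gene TSSs. The first was 22 nts inside its upstream edge, whereas the second was 95 nts past its downstream edge and the uaTSS of the second 27 nts past it. TET2-AS1, annotated on the opposite strand and sharing the locus in the RNA-seq table, was listed at an FPKM of 0.
TET2, uaTSS of the first gene TSS (chr4:106067208-106067237, minus strand): aggcccgcgtctctatctcCCtttagatcc
TET2, uaTSS of the second gene TSS (chr4:106067986-106068015, minus strand): cgcatcaatattcataaggCAgtttgacgt

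MBD1 (ENSG00000141644, chromosome 18, minus strand) initiated at 47808163, 19 nts upstream of the nearest annotated start, and was the only one of the genes with a gene TSS to lack both antisense calls. Neither was called at 35.9% of all gene TSSs. The nearest other gene TSS was that of CXXC1, a CpG-binding protein gene on the same strand, 5915 nts away at 47814078. The MBD1 gene TSS lay 550 nts beyond the 3’ end of the CXXC1 locus, and CXXC1 had an FPKM of 13.6. The MBD1 island reached 1202 nts upstream and 569 nts downstream of the gene TSS.

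**Figure D3:**
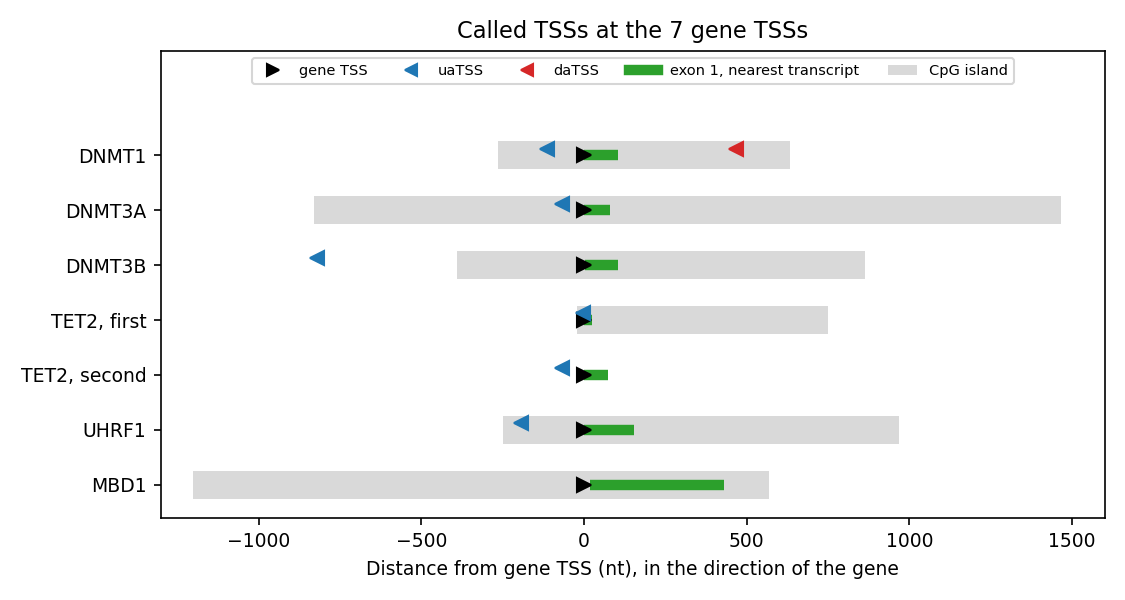
Called TSSs at the 7 gene TSSs, drawn to scale as distance in nts from the gene TSS in the direction of the gene, with gene TSSs (black), uaTSSs (blue), the daTSS (red), the first exon of the nearest annotated transcript (green) and the CpG island over the gene TSS (grey). DNMT1 had the single daTSS at 467 nts, and the DNMT3B uaTSS at 821 nts lay outside its island.

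A uaTSS was thus called at 6 of the 7 gene TSSs, or at 5 of the 6 genes with a gene TSS, and a daTSS at 1. Of the 7, 5 had only a uaTSS, compared with 35.6% of all gene TSSs. Distances from gene TSS to uaTSS ran from 2 to 821 nts with a median of 91 nts, against 200 nts over all 5519 uaTSSs. Among the 31 pathway genes with a gene TSS within 1000 nts of an annotated start, 18 had a uaTSS and 11 a daTSS. By the same rule, 51.9% of protein-coding genes had a gene TSS, and of these 55.2% had a uaTSS and 29.6% a daTSS. No annotated gene overlapped any of the 7 antisense TSSs on its own strand. The antisense calls began with a pyrimidine-purine dinucleotide at 2 of the 7, the uaTSSs of DNMT3B and of the second TET2 gene TSS, against 64.7% of all uaTSSs and 66.9% of all daTSSs.

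**Figure D4:**
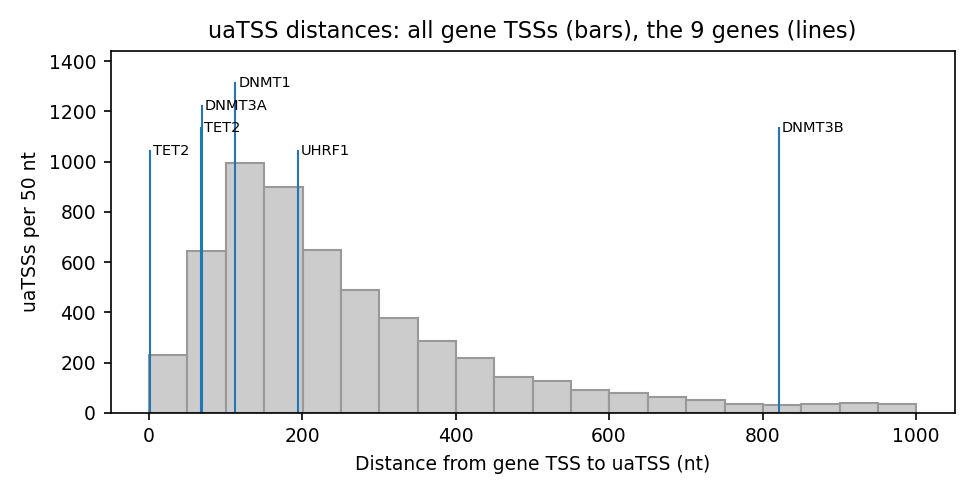
Number of uaTSSs per 50 nts of distance from the gene TSS, over all 5519 (bars), with the 6 distances of the 9 genes as blue lines whose height has no meaning. The first TET2 gene TSS (2 nts) and DNMT3B (821 nts) lay at opposite ends of the distribution.

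No gene TSS was called for TET1, TET3 or MBD2. For TET1 (ENSG00000138336, chromosome 10, 70320117 to 70454239, plus strand), whose FPKM was 0.463, a gene TSS was present at 11.8% of protein-coding genes with an FPKM under 1. TET3 (ENSG00000187605, chromosome 2, 74213531 to 74335302, plus strand) had nearly the FPKM of TET2, 6.76 against 6.56, and 82.4% of protein-coding genes with an FPKM from 5 to under 10 had a gene TSS. MBD2 (ENSG00000134046, chromosome 18, 51677971 to 51751158, minus strand) had the same rounded FPKM as UHRF1, 17.5, and 88.5% of protein-coding genes with an FPKM from 15 to under 20 had a gene TSS. Among protein-coding genes with an FPKM of at least 10 the share was 89.1%, and of DNMT1, UHRF1, MBD1 and MBD2, which met this level, MBD2 alone lacked a gene TSS. The nearest called gene TSS on either strand was 32924 nts from the 5’ edge of the TET1 locus, 59524 nts from that of TET3 and 44804 nts from that of MBD2. Read counts were not part of the calls, so that how far these promoters were from the calling threshold of 5 reads at a position is unknown.

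The 5’ edges of the 3 loci without a call differed in where the nearest CpG island lay. Where these genes initiate is unknown, and the edge need not be the promoter in use. The gene TSS of UHRF1, for example, lay 6421 nts inside its locus. The 5’ edge of the MBD2 locus lay in a CpG island of 734 bp with a GC content of 80.9%. At TET1 an island of 692 bp began 14 nts downstream of the edge. At TET3 the nearest island, of 1518 bp, ended 799 nts upstream of the edge.

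CpG islands overlapped 6 of the 7 gene TSSs, all but the second of TET2, and 82.8% of all gene TSSs. Under a stricter island definition (500 bp or more, GC content of 55% or more, observed to expected CpG of 0.65 or more) the count was again 6, against 71.3%. Over 100 nts around the gene TSS, GC content averaged 68.4% over the 7, with 67.2% over all gene TSSs. It ranged from 52% at the second TET2 gene TSS to 85% at DNMT3A. In the 1000 nts centered on DNMT3A, GC content was 82.7%, above the upper quartile of 68.5% for all gene TSSs. GC content of the 500 nts upstream and downstream was 58.8% and 69.6% at DNMT1, and 48.2% and 70.0% at the first TET2 gene TSS. The second TET2 gene TSS had the opposite order, 74.2% upstream and 47.0% downstream. Averages over all gene TSSs were 61.2% and 64.7%.

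**Figure D5:**
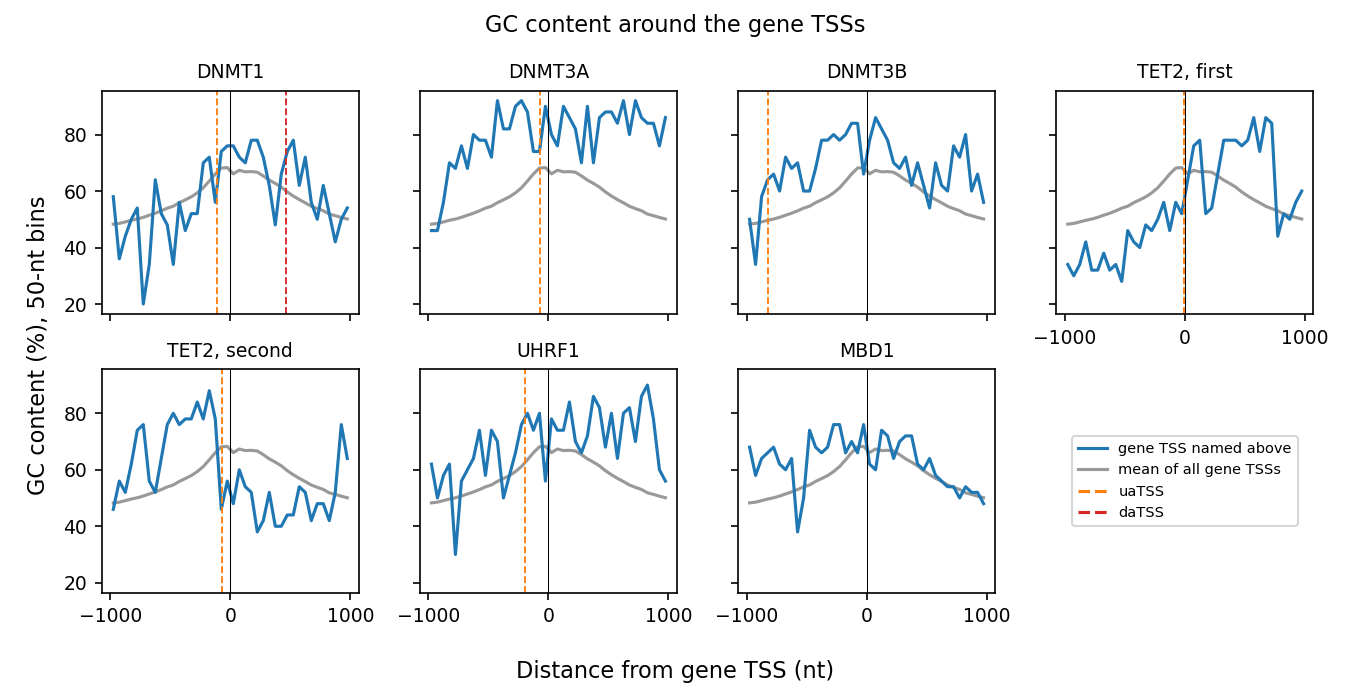
GC content in 50-nt bins within 1000 nts of each of the 7 gene TSSs (blue), the mean of all 10391 gene TSSs (grey), and the positions of uaTSSs and the daTSS (dashed). At DNMT3A, GC content was 46% in the 2 bins farthest upstream and at least 68% in every bin from 825 nts upstream onward, and the TET2 gene TSSs lay at either end of a GC-rich interval.

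Exact matches to 7 promoter motifs were searched on both strands from 250 nts before to 50 nts after each gene TSS. The GC-box core GGGCGG was found at all 7 gene TSSs, against 72.4% of all gene TSSs. DNMT3A held 3 copies and the second TET2 gene TSS held 4. TATAAA and the ETS-like CCGGAAG were found at none, and were present at 4.57% and 19.7% of all gene TSSs. UHRF1 held the E2F-like TTTCCCGC, starting 14 nts before its gene TSS, and a CCAAT box 86 nts before it, which were found at 2.79% and 35.3% of gene TSSs. The other E2F-like word, TTTGGCGC, was at none of the 7 and at 1.10% of gene TSSs. DNMT1 and MBD1 held the NRF1-like GCATGCGC, found at 5.49% of gene TSSs, and at MBD1 overlapping matches lay on both strands, counted once. For the genes without a called gene TSS, the window was set on the 5’ edge of the locus, which need not be the promoter in use. At MBD2 it held TTTCCCGC, CCAAT and GGGCGG, and at TET1 and TET3 it held none of the 7 motifs. The nearest annotated MBD2 start is 119 nts downstream of the edge. The TTTCCCGC and CCAAT matches lie more than 250 nts before that start, so both depend on the choice of the edge. The less common matches are shown in the direction of the gene, with the motif or its reverse complement in capitals.
UHRF1, TTTCCCGC (chr19:4909489-4909516, plus strand): ccgagttttcGCGGGAAAaaaatcagag
UHRF1, CCAAT (chr19:4909417-4909441, plus strand): actgcgtcggCCAATcaggaggcag
DNMT1, GCATGCGC (chr19:10305765-10305792, minus strand): tgcccgccttGCGCATGCgtgttccctg
MBD1, GCATGCGC (chr18:47808122-47808149, minus strand): gctggaaagcGCATGCGCcagctagatg
MBD2, TTTCCCGC (chr18:51751376-51751403, minus strand): gtgcagagggGCGGGAAAaggggctatc
A match describes these letters in the reference sequence and was not tested as a binding site.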

How the data were processed

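TSS positions came from Start-seq replicate 1 and FPKM values from 3 RNA-seq replicates of T47D/A1-2 cells. Start-seq replicate 2 and the nucleosome and open-chromatin libraries were not used here. For Start-seq, the authors removed reads with a mean quality score under 20, trimmed adapters with cutadapt 1.2.1, aligned reads to hg19 with Bowtie 0.12.8 and called TSSs at positions with at least 5 reads, in windows guided by RefSeq mRNA starts. The deposited calls carry a score of 0 throughout, so read depth is unknown. The deposited FPKM values were estimated by the authors with Cufflinks 2.2.1 from TopHat2 2.0.4 alignments, deduplicated and merged over replicates (versions as in the submitters' processing notes), and per-library depth is unknown.

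Loci in the FPKM table were read as starting 1 nt later than written, since 24.4% of starts then met the annotated gene start, against 2.67% as written. Gene models came from GENCODE lifted to GRCh37 and sequence from GRCh37, the same sequence as hg19, whereas the authors called TSSs from RefSeq. All 9 symbols matched, and 22002 of 26175 genes received a strand. A locus can be shared: DNMT3A, TET2, UHRF1 and MBD2 each shared theirs with 1 small RNA or antisense gene, all listed at an FPKM of 0. CpG islands were computed without repeat masking by scoring 17 for a CpG and -1 for any other base, and were kept when longer than 200 bp with an observed to expected CpG ratio over 0.6 and 50% or more G and C. Island search and start reading were tested on simulated data. Islands were planted there in an AT-rich background with few CpGs, so finding island edges in GC-rich surroundings was not tested.

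Python 3.11.15, numpy 2.4.6, pandas 2.3.3, numba 0.67.0 and matplotlib 3.10.9 were used. No test was run, since there is 1 condition and no value per replicate. All 9 genes are named, and of 36 pathway genes those with the highest and lowest FPKM in each role and those listed at 0, while CXXC1 was named as the neighbour of MBD1 after its values were seen. One list of cell type markers is not reported here. The genes and lists were chosen with earlier results of these data known. Alternatives covered gene TSS assignment, antisense joining, the reference set for percentiles, pseudocount, islands, the start dinucleotide, GC window and intron definition.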

Additional observations from a re-analysis of the deposited data

How the results depend on the processing

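Of 25 alternatives, 19 left a count within 1.5 times its value or the mean GC content within 1 SD over gene TSSs. Of these, 10 left out 1 TET2 gene TSS and were chosen after seeing the data. The mean GC content was 70.2% without the first TET2 gene TSS and 71.2% without the second, against 68.4% with both. The genes with a called gene TSS numbered 5 when the locus was not widened, which left out MBD1, and 6 otherwise. The median percentile of the FPKM of the 9 genes was 69.1 among all genes and 55.7 among genes with an FPKM above 0. It was 44.7 among genes with an FPKM of at least 1, for the 8 genes that met this level. Among genes with a gene TSS it was 37.1, with all 9 genes ranked, also the 3 without a gene TSS. The median log2(FPKM + 0.1) of the 9 genes exceeded that of all genes by 3.67, and by 2.54 with a pseudocount of 1. Among genes with an FPKM of at least 1 the difference reversed to -0.29. That restriction removes the many genes at or near 0, and it also removes TET1 from the 9 genes. The start dinucleotide count rose from 2 to 4 with 1 nt of tolerance. No paired analysis was possible because the replicate numbers belong to different assays and the FPKM column is merged. No replicate could be left out for the same reason, and the absence of read counts limits what a missing call can show.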
